A study of Rattus norvegicus with 6 samples.

Results

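Amino acid and neurotransmitter transporters of the solute carrier (SLC) families 1, 3, 6, 7, 36, 38 and 43 were examined in cultured rat oligodendrocyte precursor cells (OPCs), the dividing glial cells that give rise to myelin-forming oligodendrocytes. All gene entries whose name starts with Slc1a, Slc3a, Slc6a, Slc7a, Slc36a, Slc38a or Slc43a were taken, which gave 62 of the 32883 genes in the table. One of them, Slc7a6os, is named for its position on the strand opposite Slc7a6 and is not a transporter of these families. The cells came from the cerebral cortices of newborn Sprague Dawley rats, with the cortices of 2 rats pooled for a culture. After an earlier shaking step meant to remove microglia, OPCs were shaken off a mixed glial layer. They were kept in Neurobasal medium with B27 and N2 in both groups. The control group received the solvent DMSO and the other group 5 µM ZJU-37, an inhibitor of the kinase RIPK1 derived from necrostatin-1s. The labels give 36 h of treatment, while the methods of the study give a shorter time. Each group had 3 libraries of poly-A RNA. The methods of the study call the 3 libraries of a group biological repeats, a figure legend calls them wells of a plate, and the labels do not name separate cultures. The p-values therefore measure the spread between these libraries, which may be technical.

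Cells take up amino acids through transporters that either use the sodium or proton gradient or exchange one amino acid for another. The SLC1 family clears glutamate and exchanges small neutral amino acids, and the SLC6 family takes up GABA, glycine, taurine, creatine and monoamines together with sodium. Most SLC7 proteins are light chains that reach the cell surface only when bound to a heavy chain of the SLC3 family, whereas SLC36, SLC38 and SLC43 proteins work without one. Leucine and glutamine that enter by these routes feed protein synthesis and the growth kinase complex mTORC1, and glial GABA and glutamate uptake ends signaling between cells.

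The libraries held between 13935865 and 24097927 counts, and 3 counts corresponded to between 0.124 and 0.219 CPM (counts scaled to library size, here with the TMM factors of edgeR), and this floor covers only counting error. Among the OPC markers, Pdgfra, Olig1, Olig2, Sox10 and Ptprz1 had group means above that of Cspg4, which was at 165.6 ± 12.1 CPM with DMSO and 341 ± 63.0 CPM with ZJU-37 (SD, n = 3 libraries each). Gpr17, a marker of committed precursors, had 357 ± 25.1 CPM with DMSO and 33.1 ± 9.002 CPM with ZJU-37. Markers of other cells of the mixed glial layer were also detected. The 8 mature oligodendrocyte markers summed to between 10787 and 21863 CPM with DMSO and between 4623 and 9776 CPM with ZJU-37. The 10 microglia markers summed to between 2272 and 3944 CPM with DMSO and between 1655 and 3451 CPM with ZJU-37, and the 8 astrocyte markers to between 500.5 and 874 CPM with DMSO and between 343 and 580 CPM with ZJU-37. Of the 7 tested OPC markers 4 rose (Pdgfra, Cspg4, Olig1 and Ptprz1) and 2 fell (Sox10 and Gpr17). Among astrocyte markers Gjb6 was at or near 0. Of 5 endothelial markers found, Cldn5 was at 0 in all libraries, while Cdh5 had 14.2 ± 1.85 CPM with DMSO and 10.9 ± 1.84 CPM with ZJU-37. The 8 neuron markers summed to 826 ± 106 CPM with DMSO and 744 ± 105 CPM with ZJU-37. Markers of meningeal fibroblasts and pericytes summed to 99.9 ± 36.3 CPM with DMSO and 69.4 ± 32.7 CPM with ZJU-37. In bulk libraries, fewer cells of a type and less RNA per cell cannot be told apart.

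Of the 62 entries, 41 had enough counts to be tested and 21 did not. Of the latter, 6 had no count in any library, and no entry among the 21 exceeded 14 counts in a library. The 6 were Slc38a11, Slc6a13, Slc6a14, Slc6a18, Slc6a19 and the noradrenaline transporter Slc6a2. The serotonin transporter Slc6a4 had between 2 and 7 counts per library and the dopamine transporter Slc6a3 a single count in 1 library, so that no monoamine transporter was measurable at this depth. Slc6a5, the neuronal glycine transporter, and Slc38a5, a glutamine transporter, had at most 1 count in a library. Slc7a9, the light chain of the cystine exchanger, had 10, 1 and 2 counts with DMSO and 1, 1 and 2 with ZJU-37, so that a single library held most of them. Slc36a3 had between 2 and 9 counts per library, and Slc1a7, Slc36a2, Slc6a16, Slc6a7, Slc7a12, Slc7a13 and Slc7a15 had between 0 and 3.

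Levels of different genes were compared on the deposited FPKM scale, which divides by gene length. Slc3a2, the heavy chain also known as CD98, had the highest level with DMSO at 221 ± 12.5 FPKM (SD, n = 3 libraries). It was followed by the glutamate transporter Slc1a3 at 178 ± 32.8 FPKM and the light chain Slc7a5, also known as LAT1, at 120 ± 4.36 FPKM. The libraries of Slc3a2 and Slc1a3 overlapped in DMSO, whereas those of Slc1a3 and Slc7a5 did not. The next level, Slc6a8 at 57.4 ± 11.8 FPKM, was already below every Slc7a5 library and overlapped Slc1a1 at 56.2 ± 9.75 FPKM. With ZJU-37, Slc3a2 stood at 281 ± 21.1 FPKM, Slc7a5 at 206 ± 3.82 FPKM and Slc1a3 at 176 ± 27.1 FPKM, so that Slc7a5 took the second place, and the libraries of these neighbours did not overlap. In both groups 24 of the 62 entries had a mean of at least 10 FPKM. Slc1a2 is listed with a length of 882 bases, the shortest of the SLC1 members, which sets its FPKM value.

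**Figure D1:**
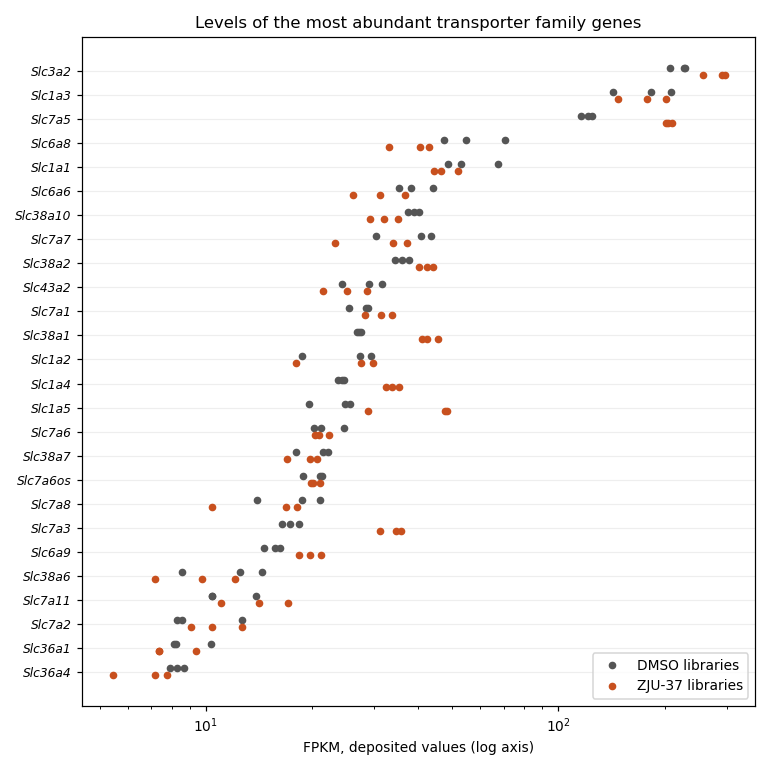
Deposited FPKM values (log axis) of 26 transporter family entries with high means in DMSO, 1 point per library, grey for DMSO and orange for ZJU-37. Slc3a2, Slc1a3 and Slc7a5 stand above all others, and the ZJU-37 libraries of Slc7a5 lie apart from its DMSO libraries.

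ZJU-37 was compared with DMSO by edgeR's quasi-likelihood test on all tested genes, with a Benjamini-Hochberg adjusted p-value under 0.05 as the threshold. Of the 41 tested entries, 8 rose with ZJU-37, which is 19.5% of them. Of all 14670 tested genes 15.0% were called, 9.43% as higher. The 8 entries were the light chains Slc7a5 and Slc7a10, their heavy chain Slc3a2, the cationic amino acid transporter Slc7a3, the neutral amino acid carriers Slc1a4, Slc38a1 and Slc38a3, and the glycine transporter Slc6a9. None passed as lower, against 5.58% of all tested genes, while 3 entries were lower at an unadjusted p-value under 0.05 in edgeR and 2 at an adjusted one in DESeq2. The median log2 fold change of the 41 entries was 0.06, beside -0.03 over all tested genes. With log2 fold change at least 1 in size as a further limit, Slc38a3 and Slc7a10 passed (4.24% of all tested genes).

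Same-numbered libraries of both groups deviated together across genes (r between 0.31 and 0.39), so the replicate number was also used as a block. With the replicate block, edgeR called 14 entries higher and 9 lower, which is 34.1% and 22.0% of the 41, against 16.2% and 15.9% of all tested genes (32.1% in either direction). All 8 entries named above kept their call, and 15 were added. Without regard to the pairs, the 3 ZJU-37 libraries lay wholly above the 3 DMSO libraries in 14 entries and wholly below in 4, where 19.0% of all tested genes were wholly higher and 16.2% wholly lower (35.2% together).

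**Figure D2:**
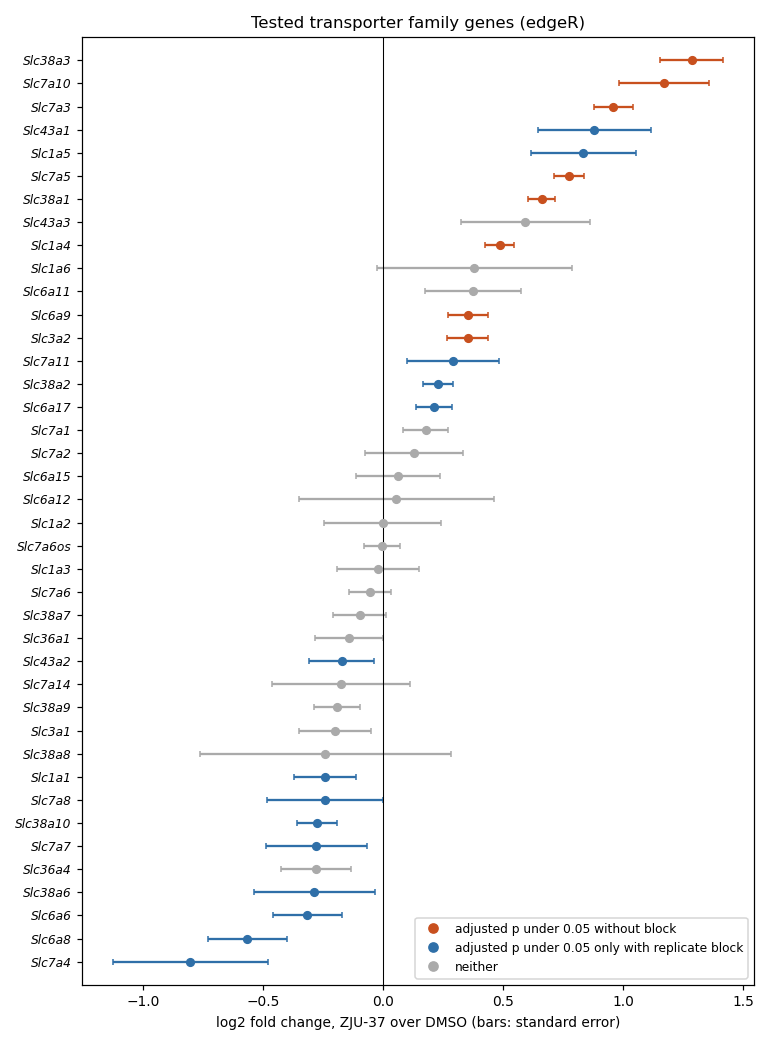
Log2 fold change of ZJU-37 over DMSO (x axis) for 40 tested entries, with bars of 1 standard error from edgeR without the block. The 8 orange entries passed without the block and all lie above 0, the 14 blue ones passed only with the replicate block and lie on both sides, and the grey ones passed neither.

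Promoter sequences were available for 46 of the 62 entries, among them 6 of the 8 that rose. They come from RefSeq on build GRCr8 and run from 250 bases before to 50 after an annotated start. The windows of Slc3a2, Slc6a9 and Slc7a10, which rose, held no match to either of a pair of short motifs and are not shown. Those of Slc1a4, Slc38a1, Slc7a5 and Slc7a1 are shown, with matches to the motifs in capitals. One is TGATGNAA, the core of the amino acid response element that ATF4 and C/EBP factors bind, and the other is CACGTG, the E-box that MYC and TFEB factors bind. Both strands were searched.
Slc1a4: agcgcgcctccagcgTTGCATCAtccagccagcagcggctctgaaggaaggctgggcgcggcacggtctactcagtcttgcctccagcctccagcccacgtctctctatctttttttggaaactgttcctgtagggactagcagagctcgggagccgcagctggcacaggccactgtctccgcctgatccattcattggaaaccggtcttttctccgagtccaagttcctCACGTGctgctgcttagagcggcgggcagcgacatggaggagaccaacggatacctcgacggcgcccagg
Slc38a1: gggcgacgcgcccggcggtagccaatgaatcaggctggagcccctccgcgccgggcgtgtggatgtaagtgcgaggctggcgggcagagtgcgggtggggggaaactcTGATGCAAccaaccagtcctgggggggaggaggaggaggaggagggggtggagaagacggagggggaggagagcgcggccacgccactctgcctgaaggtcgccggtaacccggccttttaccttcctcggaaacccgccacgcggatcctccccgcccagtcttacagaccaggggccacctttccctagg
Slc7a5: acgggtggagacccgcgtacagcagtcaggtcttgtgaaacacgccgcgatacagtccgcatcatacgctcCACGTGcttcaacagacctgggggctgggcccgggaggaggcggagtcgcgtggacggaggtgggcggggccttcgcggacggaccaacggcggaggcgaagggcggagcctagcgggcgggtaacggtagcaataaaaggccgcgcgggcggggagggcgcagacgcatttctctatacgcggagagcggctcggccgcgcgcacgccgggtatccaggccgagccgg
Slc7a1: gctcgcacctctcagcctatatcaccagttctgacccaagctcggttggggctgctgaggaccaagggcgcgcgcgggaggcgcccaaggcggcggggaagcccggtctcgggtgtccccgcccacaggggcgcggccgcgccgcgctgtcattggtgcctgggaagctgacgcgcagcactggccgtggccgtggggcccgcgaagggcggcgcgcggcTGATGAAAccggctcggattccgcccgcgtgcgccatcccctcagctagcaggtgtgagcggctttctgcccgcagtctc
The windows lie at chr14:98761513-98761812 on the minus strand for Slc1a4, chr7:129681352-129681651 on the minus strand for Slc38a1, chr19:66872363-66872662 on the minus strand for Slc7a5 and chr12:11664238-11664537 on the plus strand for Slc7a1. The amino acid response element core was found in 2 of the 6 rising members with a window, Slc1a4 (on the reverse strand, 235 bases before the start) and Slc38a1 (142 bases before the start), and otherwise among the entries in Slc7a1 (30 bases before the start). Over all 33469 promoter windows 3.98% held it, against 3 of the 50 windows of the entries (6.00%). The E-box stood in 8 of the 50 windows (16.0%), among them those of Slc7a5 and Slc1a4, and in 6.42% of all windows. A further pair of motifs, the antioxidant response element core TGACNNNGC and the cAMP response element TGACGTCA, stood in 9 and 1 of the 50 windows, against 12.1% and 1.83% of all. A match of letters describes the window and does not show that a factor binds there.

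Of the 2 SLC3 heavy chains and the 6 SLC7 light chains tested, 3 rose and none fell without the block. Over all tested genes 9.43% rose and 5.58% fell. With the block, 1 heavy chain was higher and none lower, and 3 light chains were higher and 2 lower. The shares of all tested genes with the block were 16.2% and 15.9%. Slc7a5, which brings leucine and other large neutral amino acids into the cell in exchange for glutamine, spans positions 54693959 to 54722563 of chromosome 19 (minus strand) in the table, whose build is not given in the sources used here. Its level was 422, 429 and 402 CPM with DMSO and 695, 734 and 718 CPM with ZJU-37, where values always follow the order of the replicate numbers. The groups lay far apart, and the spread within each was small. Group means were 418 ± 13.9 and 716 ± 19.7 CPM (SD, n = 3 libraries each), a 1.71-fold increase (log2 fold change 0.78, SE 0.06, edgeR adjusted p = 5.68e-04). Leaving out any single library moved this log2 value only between 0.75 and 0.82. In the same coordinates the other 7 rising entries lie as follows: Slc3a2 on chromosome 1 from 224906554 to 224921092 (minus strand), Slc7a10 on chromosome 1 from 91433030 to 91448564 (plus strand), Slc7a3 on chromosome X from 70972765 to 70978952 (minus strand), Slc38a1 on chromosome 7 from 137975549 to 138039984 (minus strand), Slc38a3 on chromosome 8 from 116406241 to 116422366 (minus strand), Slc1a4 on chromosome 14 from 104581190 to 104612597 (minus strand) and Slc6a9 on chromosome 5 from 136669674 to 136703697 (plus strand).

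Slc3a2, the chain that carries Slc7a5 and most other light chains to the membrane, had 428, 469.6 and 470.0 CPM with DMSO and 525, 615 and 606 CPM with ZJU-37. All ZJU-37 values exceeded all DMSO values, by a smaller margin than for Slc7a5. For Slc3a2 the 1.28-fold increase (log2 fold change 0.35, SE 0.09) had an edgeR adjusted p of 0.0378. The Slc3a2 call was lost when DMSO replicate 1, 2 or 3 or ZJU-37 replicate 2 or 3 was left out (adjusted p = 0.107, 0.0971, 0.0889, 0.0910 and 0.117, edgeR). The ratio of Slc3a2 to Slc7a5 on the FPKM scale was 1.71, 1.84 and 1.97 in the DMSO libraries and 1.27, 1.41 and 1.42 in the ZJU-37 libraries. The groups did not overlap in this ratio (exact permutation, two-sided, p = 0.1, which is the minimum for 3 against 3). Against the summed FPKM of the 6 tested light chains, the ratio of Slc3a2 moved less. It was 1.05 ± 0.03 with DMSO and 0.97 ± 0.02 with ZJU-37 (SD, n = 3 libraries each, exact permutation, two-sided, p = 0.1). Slc3a1, the heavy chain of the cystine and dibasic amino acid exchanger, was at 11.6 ± 1.98 CPM with DMSO and 10.1 ± 0.58 CPM with ZJU-37 (adjusted p = 0.453, edgeR).

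Slc7a10, also known as Asc-1, exchanges small neutral amino acids including D-serine. It was scarce, at 1.68, 1.75 and 2.12 CPM with DMSO and 4.16, 4.07 and 4.34 CPM with ZJU-37, and the groups did not overlap. Slc7a10 thus rose 2.25-fold (log2 fold change 1.17, SE 0.19, edgeR adjusted p = 0.00756). Its listed span overlaps that of Lrp3 on the other strand by 204 bases, and Lrp3 had 7079 counts in all against 360 for Slc7a10. The counting is not stated to use strand, so reads in the overlap cannot be assigned with certainty.

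The other light chains gave smaller differences. Slc7a11, the cystine-glutamate exchanger xCT that supplies cysteine for glutathione, had 93.2, 92.6 and 124 CPM with DMSO and 97.7, 128 and 155 CPM with ZJU-37. Replicate 3 was the highest in both groups, and the groups overlapped. In edgeR the log2 fold change of 0.29 did not pass (SE 0.19, adjusted p = 0.390), and it passed with the block (SE 0.07, adjusted p = 0.0192). Slc7a7 and Slc7a8 export cationic and neutral amino acids, respectively, in exchange for others. Slc7a7 had 54.5, 77.3 and 72.9 CPM with DMSO and 41.1, 66.9 and 61.0 CPM with ZJU-37 (log2 fold change -0.28, adjusted p = 0.459, edgeR, and 0.00663 with the block). Slc7a8 had 58.8, 87.7 and 78.7 CPM with DMSO and 42.98, 76.2 and 71.4 CPM with ZJU-37 (log2 fold change -0.24, adjusted p = 0.586, edgeR, and 0.0194 with the block). Both were lowest in replicate 1 and highest in replicate 2 of each group, and lower with ZJU-37 in each same-numbered pair. The summed microglia markers had the same order of libraries, at 2272, 3944 and 3038 CPM in the DMSO and 1655, 3451 and 2554 CPM in the ZJU-37 libraries (0 of 10 passed in edgeR, 0 at an unadjusted p-value under 0.05, and 4 of 10 were lower with the block), and their part in these values was not tested. Slc7a6 was at 81.0 ± 8.06 CPM with DMSO and 78.2 ± 4.33 CPM with ZJU-37 (adjusted p = 0.752, edgeR). Among the 6 tested light chains together, Slc7a5 made up 61.1%, 55.2% and 54.9% of the FPKM in the DMSO libraries and 75.0%, 69.1% and 69.2% in the ZJU-37 libraries, which did not overlap (exact permutation p = 0.1, again the smallest possible).

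Cationic amino acid transporters bring arginine, lysine and ornithine into the cell without a heavy chain. Of the 5 tested, 1 passed without the block, against 15.0% of all tested genes. With the block 1 was higher and 1 lower, against 32.1% of all tested genes in either direction. Slc7a3, which is known from neurons and the developing brain, had 50.5, 52.7 and 56.4 CPM with DMSO and 94.2, 109.9 and 107 CPM with ZJU-37. The groups were separated by a wide gap. Slc7a3 rose 1.95-fold (log2 fold change 0.96, SE 0.08, edgeR adjusted p = 5.97e-04), which stayed between 0.92 and 1.04 on the log2 scale when a library was left out. On the FPKM scale Slc7a1, a widespread cationic transporter, was at 27.6 ± 1.87 FPKM with DMSO against 17.4 ± 0.996 FPKM for Slc7a3, and with ZJU-37 at 31.1 ± 2.81 against 33.8 ± 2.35 FPKM. The libraries of both genes overlapped with ZJU-37 and not with DMSO. Slc7a1 had 183 ± 12.3 CPM with DMSO and 207 ± 20.6 CPM with ZJU-37 (log2 fold change 0.18, adjusted p = 0.270, edgeR). Slc7a2 had 26.1 ± 6.54 and 28.5 ± 5.11 CPM (adjusted p = 0.736, edgeR). Slc7a14, another relative, was at 2.93 ± 1.06 and 2.58 ± 0.25 CPM (adjusted p = 0.747, edgeR). Slc7a4, a related protein without a well-defined substrate, had 2.70, 2.37 and 2.87 CPM with DMSO and 2.27, 1.07 and 1.24 CPM with ZJU-37. Its ZJU-37 libraries were all below the DMSO libraries (log2 fold change -0.80, standard error 0.32, adjusted p = 0.157, edgeR, and 0.0409 with the block). Without ZJU-37 replicate 1, the Slc7a4 log2 fold change was -1.17 and passed the threshold without the block (adjusted p = 0.0351, edgeR).

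**Figure D3:**
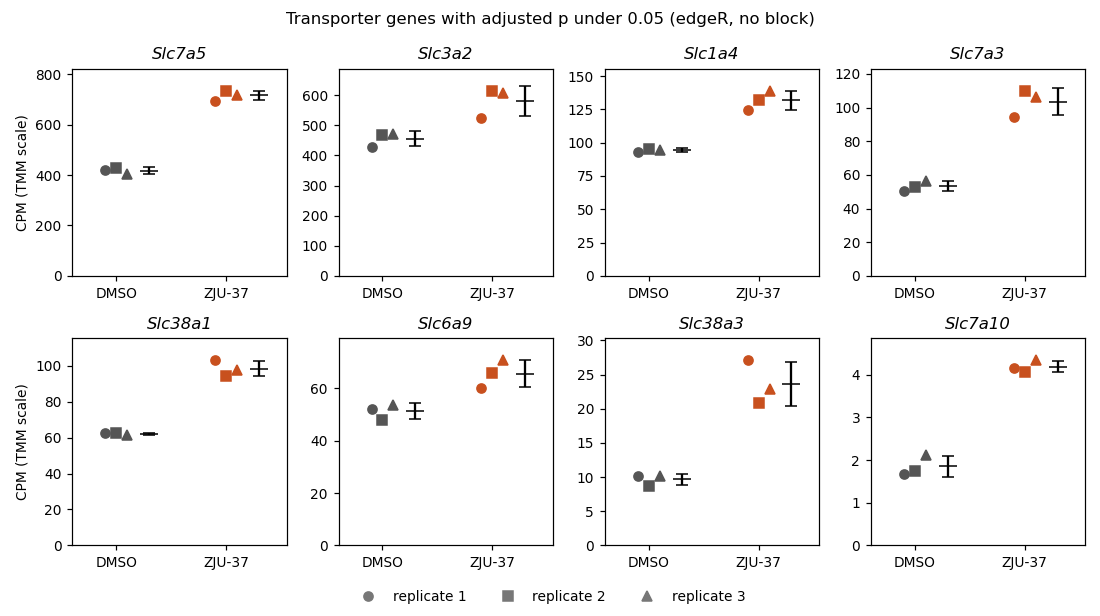
CPM on the TMM scale for the 8 entries that passed without the block, with each library as a point (shape marks the replicate number) and the mean with SD beside it, on axes that start at 0. The 3 ZJU-37 points lie above the 3 DMSO points in each panel, with the widest relative gap for Slc38a3 and Slc7a10.

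Sodium-coupled neutral amino acid transporters of the SLC38 family were tested in 8 cases, of which 2 were higher and none lower without the block, and 3 higher and 2 lower with it. Over all tested genes the shares were 9.43% and 5.58% without the block and 16.2% and 15.9% with it. Slc38a1, a system A carrier that concentrates glutamine and alanine, had 62.5, 62.7 and 61.7 CPM with DMSO and 103, 94.5 and 98.0 CPM with ZJU-37. The DMSO libraries were almost identical and the ZJU-37 libraries all lay above them. Slc38a1 rose 1.58-fold (log2 fold change 0.66, SE 0.06, edgeR adjusted p = 6.67e-04). Slc38a2, the system A carrier that many cells induce when amino acids are short, had 177, 167 and 161 CPM with DMSO and 203, 198 and 189.5 CPM with ZJU-37. The groups did not overlap, and the log2 fold change of 0.23 (SE 0.06) had an adjusted p of 0.0547 in edgeR and 0.00578 with the replicate block. Slc38a4, the remaining system A carrier, had between 2 and 8 counts per library.

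Slc38a3, a system N carrier that moves glutamine in either direction and is known from astrocytes and liver, had 10.1, 8.76 and 10.2 CPM with DMSO and 27.1, 20.9 and 22.9 CPM with ZJU-37. It showed the largest log2 fold change of the 41 tested entries in edgeR without the block, at 1.29 (SE 0.13, adjusted p = 0.00126, edgeR), or 2.44-fold. The summed astrocyte markers were at 769, 500.5 and 874 CPM in the DMSO libraries and 448, 343 and 580 CPM in the ZJU-37 libraries. Of the 7 tested, 1 was lower without the block, and 1 was higher and 5 were lower with it. Their part in the Slc38a3 values was not tested. Slc38a7, a glutamine transporter of the lysosome, was at 78.3 ± 8.36 and 73.2 ± 8.05 CPM (adjusted p = 0.630, edgeR). Slc38a9, the lysosomal arginine sensor that signals to mTORC1, had 29.2, 29.4 and 27.3 CPM with DMSO and 23.5, 28.2 and 23.8 CPM with ZJU-37 (log2 fold change -0.19, standard error 0.10, adjusted p = 0.257, edgeR). Slc38a10 had 142, 151 and 148 CPM with DMSO and 109, 133 and 122 CPM with ZJU-37. All its ZJU-37 libraries were lower than the DMSO libraries (log2 fold change -0.27, standard error 0.08, adjusted p = 0.0753, edgeR, and 0.00449 with the block). Slc38a6 had 27.5 ± 6.78 CPM with DMSO and 22.6 ± 5.94 CPM with ZJU-37, and its log2 fold change of -0.28 passed only with the replicate block (adjusted p = 0.528, edgeR, and 0.0191 with the block). The spans of Slc38a6 and Trmt5, on opposite strands, overlap by 24 bases. Slc38a8 had between 0.21 and 0.82 CPM (adjusted p = 0.810, edgeR).

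The neutral amino acid exchangers of the SLC1 family were both higher on the CPM scale. Slc1a4, also known as ASCT1, carries alanine, serine and cysteine. It had 92.7, 95.4 and 94.6 CPM with DMSO and 125, 132 and 139 CPM with ZJU-37, without overlap. Its log2 fold change was 0.49 (SE 0.06, adjusted p = 0.00263, edgeR), or 1.40-fold. Slc1a5, also known as ASCT2, is a main entry route for glutamine in dividing cells. It had 54.4, 68.4 and 70.8 CPM with DMSO and 78.9, 134 and 133 CPM with ZJU-37. Again no library overlapped, but ZJU-37 replicate 1 lay far below the other two. Its log2 fold change of 0.84 (SE 0.22) narrowly missed the threshold in edgeR (adjusted p = 0.0518) and passed with the block at 0.81 (SE 0.09, adjusted p = 2.47e-04). Without ZJU-37 replicate 1 it was 1.06 (adjusted p = 0.00456, edgeR without the block).

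None of the 4 tested excitatory amino acid transporters, which clear glutamate from the extracellular space, passed in edgeR without the block (0 at an unadjusted p-value under 0.05, and 0 in DESeq2). Over all tested genes 15.0% passed without the block. With it 1 of the 4 was lower, against 32.1% of all tested genes in either direction. Slc1a3, also known as GLAST, had 737, 569.8 and 835 CPM with DMSO and 704, 595 and 814 CPM with ZJU-37. The libraries followed the replicate number and not the treatment, with replicate 3 highest and replicate 2 lowest in both groups. Its log2 fold change was -0.02 (SE 0.17, adjusted p = 0.958, edgeR), and -0.01 (SE 0.05) with the block. The astrocyte marker sums above had the same order of replicates within each group, and their part in these values was not tested. Slc1a2, also known as GLT-1, had 24.4, 16.5 and 26.2 CPM with DMSO and 24.2, 16.1 and 26.7 CPM with ZJU-37, again ordered by replicate number (adjusted p = 0.999, edgeR). Slc1a1, also known as EAAC1 and present in neurons and the oligodendrocyte lineage, had 254, 197 and 183 CPM with DMSO and 192, 168 and 176 CPM with ZJU-37. The groups overlapped, with a log2 fold change of -0.24 (SE 0.13, adjusted p = 0.286, edgeR, and 0.0305 with the block). Slc1a6, the transporter of Purkinje cells, had between 0.62 and 2.11 CPM.

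Among the GABA, taurine, betaine and creatine transporters of the SLC6 family, no entry passed in edgeR without the block (2 at an unadjusted p-value under 0.05). Over all tested genes 15.0% passed. Slc6a11, the GABA transporter GAT3, had 13.4, 10.0 and 11.3 CPM with DMSO and 18.4, 15.1 and 11.4 CPM with ZJU-37 (adjusted p = 0.279, edgeR, and 0.0565 with the block). Slc6a12, the betaine and GABA transporter, was at 2.42 ± 1.37 and 2.54 ± 0.39 CPM (adjusted p = 0.949, edgeR).

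Slc6a8, which takes up creatine for the cell's energy buffer, had 278, 213 and 187 CPM with DMSO and 167, 160.3 and 131 CPM with ZJU-37. All ZJU-37 libraries were below all DMSO libraries, and within each group replicate 1 was highest and replicate 3 lowest. Its log2 fold change in edgeR was -0.56 without the block (SE 0.16, adjusted p = 0.0699) and -0.55 with it (SE 0.07, adjusted p = 2.49e-04). The summed mature oligodendrocyte markers were also lower with ZJU-37, at 21863, 15490.2 and 10787 CPM in the DMSO and 8482, 9776 and 4623 CPM in the ZJU-37 libraries (1 of 8 lower, 4 of 8 with the block), and their part in the Slc6a8 values was not tested. Slc6a6, the taurine transporter, had 96.8, 119.6 and 105 CPM with DMSO and 70.8, 101 and 86.4 CPM with ZJU-37. Its groups overlapped, but each pair was lower with ZJU-37 (log2 fold change -0.31, adjusted p = 0.208, edgeR, and 0.00259 with the block).

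**Figure D4:**
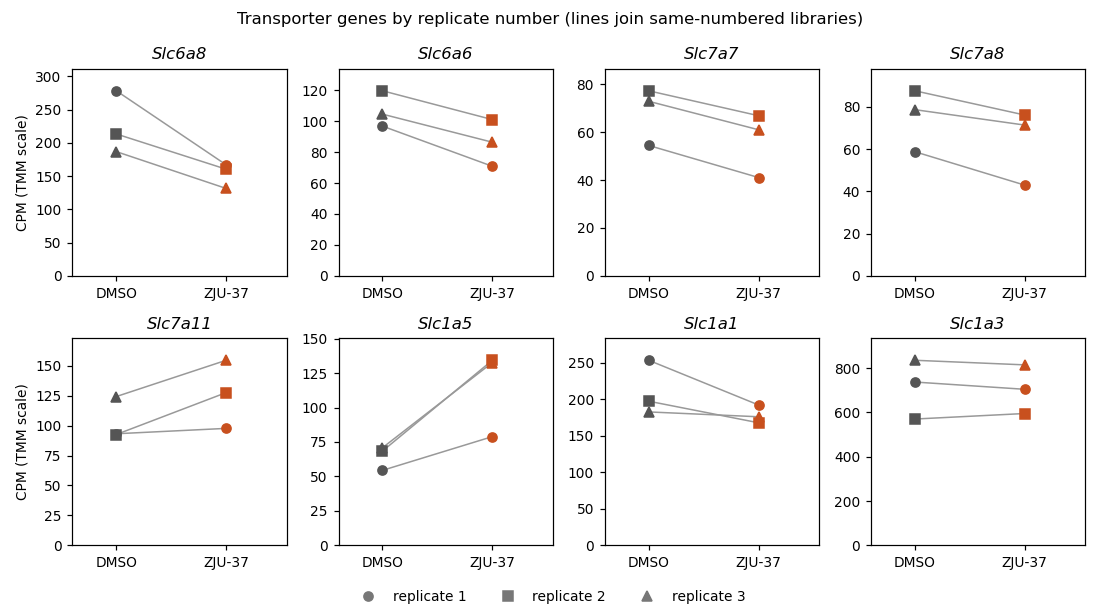
CPM on the TMM scale for 8 entries, with lines joining the DMSO and ZJU-37 libraries of the same replicate number and axes that start at 0. Lines run down in all pairs for Slc6a8, Slc6a6, Slc7a7, Slc7a8 and Slc1a1 and up for Slc7a11 and Slc1a5, while those of Slc1a3 are nearly flat and keep the order of the replicates.

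Slc6a9, the glycine transporter GlyT1, was the only tested glycine or proline transporter. It had 52.3, 48.0 and 53.8 CPM with DMSO and 60.3, 66.0 and 70.8 CPM with ZJU-37, without overlap. Slc6a9 rose 1.28-fold (log2 fold change 0.35, SE 0.08, edgeR adjusted p = 0.0313). Its call was lost when any library other than ZJU-37 replicate 1 was left out (adjusted p = 0.0770, 0.113 and 0.0651 without DMSO replicates 1, 2 and 3 and 0.0614 and 0.0833 without ZJU-37 replicates 2 and 3, edgeR). Slc6a20, a proline transporter, had 3, 8 and 14 counts in the DMSO libraries and 2, 4 and 6 in the ZJU-37 libraries and was not tested. Slc6a17, a vesicular neutral amino acid transporter of neurons, had 49.4, 42.99 and 46.7 CPM with DMSO and 56.3, 53.5 and 51.5 CPM with ZJU-37 (log2 fold change 0.21, adjusted p = 0.113, edgeR, and 0.0272 with the block). Slc6a15, a transporter of branched-chain amino acids and proline in neurons, had 19.97 ± 4.94 and 20.8 ± 0.46 CPM (adjusted p = 0.856, edgeR).

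In the SLC43 family, Slc43a1 and Slc43a2 carry large neutral amino acids without exchange. Slc43a1 had 1.10, 1.64 and 1.17 CPM with DMSO and 2.38, 2.33 and 2.52 CPM with ZJU-37. The groups did not overlap, and the log2 fold change of 0.88 (SE 0.24) had an adjusted p of 0.0507 in edgeR and 0.0281 with the replicate block. Slc43a2, the most abundant of the family, was at 128 ± 16.1 and 113 ± 17.0 CPM (log2 fold change -0.17, adjusted p = 0.478, edgeR, and 0.0261 with the block). Slc43a3 was at 2.14 ± 0.71 and 3.26 ± 0.23 CPM (adjusted p = 0.204, edgeR). In the SLC36 family, Slc36a1 was at 27.6 ± 3.71 CPM with DMSO and 25.0 ± 3.77 CPM with ZJU-37, and Slc36a4 at 24.7 ± 1.31 and 20.3 ± 3.82 CPM. Neither passed with or without the block (adjusted p = 0.586 and 0.273 without it, edgeR). Slc7a6os was at 30.7 ± 1.98 and 30.7 ± 0.60 CPM (adjusted p = 0.985, edgeR).

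Enzymes and sensors that use the transported amino acids were counted from lists that hold none of the transporters above. Of the 15 tested genes of the amino acid response by ATF4, 3 were higher and none lower in edgeR without the block (7 higher and 1 lower with it). These were asparagine synthetase Asns (136 ± 9.67 to 191 ± 25.1 CPM, log2 fold change 0.49, adjusted p = 0.0278), Phgdh, which opens serine synthesis (199 ± 10.5 to 319 ± 2.96 CPM, 0.68, adjusted p = 8.20e-04), and Pycr1 of proline synthesis (0.28, adjusted p = 0.0442, all edgeR). Of the 20 aminoacyl-tRNA synthetases, 3 were higher (Cars, Gars and Vars, log2 fold changes of 0.34, 0.30 and 0.28) and none lower, and 9 were higher with the replicate block. Median log2 fold changes were 0.20 for the ATF4 list, 0.15 for the synthetases, -0.09 for glutamate, GABA and glycine metabolism and -0.07 for lysosomal sensing by mTORC1, beside -0.03 over all tested genes. Of the 16 tested genes of glutamate, GABA and glycine metabolism, 2 were higher and 2 lower, and 3 were higher and 6 lower with the block. The higher ones were Gldc of the glycine cleavage system (19.7 ± 1.61 to 32.6 ± 1.08 CPM, log2 fold change 0.72, adjusted p = 0.00230, edgeR) and Shmt1, which interconverts serine and glycine (36.4 ± 2.85 to 58.4 ± 4.52 CPM, 0.68, adjusted p = 0.00320, edgeR). Those that fell were the GABA-degrading transaminase Abat (155 ± 16.4 to 64.7 ± 4.42 CPM, log2 fold change -1.26, adjusted p = 4.57e-04, edgeR) and glutamate dehydrogenase Glud1 (log2 fold change -0.30, adjusted p = 0.0351, edgeR). Among the 18 tested genes of lysosomal amino acid sensing by mTORC1, Sesn3, whose product restrains mTORC1, was lower (79.2 ± 8.34 to 55.0 ± 3.60 CPM, log2 fold change -0.52, adjusted p = 0.0118, edgeR), and none was higher. With the block 4 genes of that list, Sesn3 among them, were lower and none was higher. Over all lists 13 of 91 tested genes passed, which is 14.3% and close to the 15.0% of all tested genes, and 35 (38.5%) passed with the replicate block, against 32.1% of all. Of the 91, 7 passed without DMSO replicate 2, 5 without DMSO replicate 3 and 5 without ZJU-37 replicate 3.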

How the data were processed

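Poly-A RNA libraries, 3 for DMSO and 3 for ZJU-37, were sequenced. The deposited raw counts per gene come from featureCounts. The deposited FPKM values relate those counts to gene length and library size. HISAT2 2.0.5, StringTie 1.3.3b and featureCounts 1.5.0 are listed in the submitters' processing notes. The genome build is not given in the sources used here. The table also holds the authors' own DESeq2 group means, fold changes and p-values, which were not used. Per-sample columns of other studies were not present.

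In R 4.3.3, edgeR 4.0.16 was used on the whole table (filterByExpr, then TMM, then the robust quasi-likelihood F-test), with Benjamini-Hochberg adjustment over 14670 genes. A standard error (SE) is the size of the log2 fold change divided by the root of F. Alternatives were DESeq2 1.42.0, limma 3.58.1 with a pseudocount of 1 or 0.1 on log2 FPKM, other normalizations and filters, the replicate block and leaving out each library. Pairs were taken from the labels' replicate numbers. Deviations from the group means correlated with r = 0.39, 0.31 and 0.33 for same-numbered libraries and between -0.27 and -0.01 for others, across genes, which are not independent replicates. No 2 libraries of a group were duplicates (chi-square over degrees of freedom 11.9 or more). On simulated counts with 200 changed genes among 14537, edgeR recovered 93.5% with 4.59% false calls. With the replicate block it recovered 92.0% with 7.07%, and DESeq2 recovered 97.0% with 21.1%. In the deposited counts 2201 of 14670 genes were called without the block and 4705 with it, and same-numbered libraries deviated together. Whether the rates hold for the deposited counts, with or without the block, was not tested.

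The entries and lists were chosen with earlier results of these data known. Named were entries with an adjusted p under 0.05 with or without the block, that with the highest mean CPM in each role group, and Slc1a1, Slc1a2, Slc1a3, Slc3a2, Slc6a9, Slc7a5, Slc7a11, Slc38a2 and Slc38a9, and others within their role group. One entry is counted in the totals but not reported here by name. Pathway genes are named where they passed. Of 119 listed pathway symbols, which include older and newer names of the same synthetases, 96 were found in the table. Where a symbol had several entries, that with the most counts was used. Promoters were taken from RefSeq (GRCr8), with all motifs chosen after the results were known.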

Additional observations from a re-analysis of the deposited data

How the results depend on the processing

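The 8 entries called higher became 14 with the replicate block and ran from 6 to 9 when 1 library was left out. The 0 entries called lower became 2 with DESeq2 (Slc6a8 and Slc38a10) and 9 with the replicate block, and ran from 0 to 1 when 1 library was left out, the 1 being Slc7a4 without ZJU-37 replicate 1. Of all calls among the entries, 100% were higher without the block, 84.6% with DESeq2 and 60.9% with the block, beside 62.8%, 58.9% and 50.4% of all calls over all genes. The 2 entries with log2 fold change of at least 1 in size became 1 with limma on log2(FPKM + 1) and ran from 2 to 5, the most without ZJU-37 replicate 1. Over all genes, 2201 calls became 4705 with the replicate block and ran from 1306 (without DMSO replicate 2) to 1927, with 1351 without ZJU-37 replicate 3. The 13 called pathway genes became 35 with the replicate block and ran from 5 to 13 when 1 library was left out, a check chosen after seeing the data, with 7 without DMSO replicate 2, 5 without DMSO replicate 3 and 5 without ZJU-37 replicate 3. The log2 fold change of Slc1a2, near 0, changed sign to 0.0313 with library size only, 0.0063 without a filter on low counts and 5.7e-04 with at least 10 counts in every library, and ran from -0.18 to 0.22 when 1 library was left out. That of Slc1a3 was 0.0104 with library size only and ran from -0.16 to 0.12. Slc7a5, Slc7a3, Slc7a10, Slc38a1, Slc38a3 and Slc1a4 passed in all alternatives and in all fits with 1 library left out. Slc3a2 and Slc6a9 passed in all alternatives other than leaving out a library. The replicate block changed the calls of 15 entries and of no other entry. The cause of these changes was not tested. Entries under about 1 CPM are limited by depth.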

Other observations

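Of 12 tested vesicular and mitochondrial carriers of neurotransmitters and amino acids, none passed in edgeR without the block (2 at an unadjusted p-value under 0.05), against 15.0% of all tested genes, and 1 was higher and 1 lower with the replicate block, with a median log2 fold change of -0.09. Slc18a1, which loads monoamines into vesicles, had 0.74 ± 0.27 CPM with DMSO and 1.78 ± 0.65 CPM with ZJU-37 (log2 fold change 1.28, adjusted p = 0.0864 in edgeR and 0.0243 with the block). Slc32a1, which loads GABA and glycine into synaptic vesicles, had 40.1 ± 12.1 CPM with DMSO and 29.8 ± 7.94 CPM with ZJU-37 (SD, n = 3 libraries each, adjusted p = 0.384 in edgeR and 0.00249 with the replicate block). The GABA-synthesizing enzymes Gad1 and Gad2 were at 62.8 ± 18.7 and 48.4 ± 11.2 CPM with DMSO and at 51.4 ± 14.6 and 31.6 ± 2.76 CPM with ZJU-37 (adjusted p = 0.570 and 0.0598 in edgeR, and 0.00441 and 9.72e-04 with the block). These 4 genes were chosen after their values were seen. The 8 neuron markers summed to 938, 727 and 813 CPM in DMSO replicates 1, 2 and 3 and to 853, 644 and 734 CPM with ZJU-37, lower in each pair and in the same order of replicates as Slc32a1, Gad1 and Gad2. None of the 8 passed in edgeR (1 at an unadjusted p-value under 0.05), 2 were lower with the block, and their part in these values was not tested.

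In the list of glutathione and cysteine use, 1 of 10 tested genes was higher and 1 lower (2 and 1 with the block), with a median log2 fold change of 0.03. Gclm, a subunit of the enzyme that starts glutathione synthesis, rose from 37.1 ± 2.63 to 50.7 ± 5.41 CPM (log2 fold change 0.45, adjusted p = 0.0253, edgeR). Csad, an enzyme of taurine synthesis, fell from 33.1 ± 6.55 to 22.6 ± 0.71 CPM (log2 fold change -0.55, adjusted p = 0.0438, edgeR).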
